A study of Mus musculus with 6 samples.

Results

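Genes of extracellular proteolysis were examined in CD4+ T cells of mice, grown under Th1 conditions either with vehicle or with ALX-5407, which blocks the glycine transporter GlyT1. The genes were chosen by name: the TIMP inhibitors, the matrix metalloproteinases (MMPs), the ADAM proteases, and the ADAMTS and ADAMTS-like genes that are annotated as protein coding. The rule found 83 of the 54532 genes listed, of which 4 were TIMP, 22 MMP, 33 ADAM, 19 ADAMTS and 5 ADAMTS-like genes. Of the 83 genes, 67 had at least 1 read in some library, 41 had at least 10 reads in total, and 28 had enough reads to be tested. Another name that matched, Mmp1a, is annotated as a polymorphic pseudogene and had no reads.

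The CD4+ T cells came from spleens of young male C57BL/6 mice and were taken by negative selection on beads. They were activated through CD3 and CD28 with IL-2, IL-12 and an antibody against IL-4, in all cultures alike, and harvested at 72 h. In the vehicle group (Th1, 3 libraries) the medium held DMSO by the study's methods, and in the ALX-5407 group (3 libraries) it held ALX-5407 at 500 nM. The sample titles of the vehicle group name no vehicle, and the study's results call these controls untreated. The labels name ALX-5407 beside a culture of 72 h, and selection of polyadenylated RNA, whereas the study's methods give a shorter exposure and depletion of ribosomal RNA. The study's figure legend for this RNA sequencing describes ALX-5407 in the medium and a culture of 3 days, as the labels do. The labels call the libraries biological replicates. No source used here says whether these replicates came from different mice, so the p-values measure only the spread between these libraries.

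MMPs are secreted or membrane-bound zinc proteases that degrade matrix and are made as inactive precursors. ADAM proteases sit in the cell membrane and release the outer parts of cytokines, receptors and adhesion molecules, a step called shedding. ADAMTS proteases are secreted and process collagen precursors, proteoglycans and microfibrils, and ADAMTS-like proteins share their ancillary domains but lack the protease domain. TIMPs bind the active site of these enzymes. In T cells these systems are known for the shedding of L-selectin, TNF and Notch receptors and for passage through basement membranes.

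The largest member by level was Timp1, the secreted inhibitor of most MMPs and of ADAM10, and it fell in the cultures with ALX-5407. Timp1 lies on the + strand of the X chromosome (chrX:20870166-20874735, GRCm38), inside the span of Syn1 on the opposite strand, with which it shares 0 exon bases. Its annotated start region is shown here because this gene carried the largest change in reads, with a TGAGTAA letter run in capitals, a variant of the AP-1 site TGANTCA. AP-1 is the dimer of Fos and Jun factors. Windows from the 3 MMP genes with the most reads in the chromosome 9 cluster, described further on, are shown beside it, with the TGANTCA match in capitals. Each window runs from 250 bases before to 50 bases after a RefSeq start (GRCm38.p6, + strand), at chrX:20869916-20870215, chr9:7691840-7692139, chr9:7627981-7628280 and chr9:7502092-7502391.
Timp1: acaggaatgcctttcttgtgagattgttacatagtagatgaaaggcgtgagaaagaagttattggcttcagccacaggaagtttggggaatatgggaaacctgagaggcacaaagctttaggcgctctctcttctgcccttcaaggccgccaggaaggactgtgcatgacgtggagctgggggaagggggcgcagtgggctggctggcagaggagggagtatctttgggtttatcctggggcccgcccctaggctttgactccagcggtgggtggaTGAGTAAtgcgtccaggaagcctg
Mmp7: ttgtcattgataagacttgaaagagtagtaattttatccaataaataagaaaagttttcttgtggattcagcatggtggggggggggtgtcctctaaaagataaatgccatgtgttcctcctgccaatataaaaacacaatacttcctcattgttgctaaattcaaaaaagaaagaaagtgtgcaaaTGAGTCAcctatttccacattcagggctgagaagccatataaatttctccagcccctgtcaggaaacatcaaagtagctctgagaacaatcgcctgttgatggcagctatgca
Mmp20: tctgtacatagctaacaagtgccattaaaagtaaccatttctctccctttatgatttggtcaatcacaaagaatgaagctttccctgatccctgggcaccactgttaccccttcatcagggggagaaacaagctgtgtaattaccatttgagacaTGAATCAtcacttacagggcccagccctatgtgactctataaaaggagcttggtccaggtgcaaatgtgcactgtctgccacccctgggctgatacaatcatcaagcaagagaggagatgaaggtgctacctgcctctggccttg
Mmp10: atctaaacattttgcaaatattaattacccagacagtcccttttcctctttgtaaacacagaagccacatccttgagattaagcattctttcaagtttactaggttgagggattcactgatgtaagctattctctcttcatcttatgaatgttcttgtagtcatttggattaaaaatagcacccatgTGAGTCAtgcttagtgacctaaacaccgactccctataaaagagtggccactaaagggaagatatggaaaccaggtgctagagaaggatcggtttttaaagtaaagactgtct

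The capitals begin at position 27 after the start in Timp1, and at positions -63, -95 and -63 relative to the start in Mmp7, Mmp20 and Mmp10. A second Mmp7 start has a window without the match. A window was found for 52 of the 83 genes by symbol, 4 of which have more than 1 start. Both strands were searched. TGANTCA was present in 12 of these 52 genes, and in 8.97% of the 27025 genes with a window. The variant TGAGTAA was present in 1 of the 52 and in 3.09% of all genes. Of the 9 MMP genes of the chromosome 9 cluster, 7 held TGANTCA, against 5 of the 43 other members with a window. The printed windows are all of genes with fewer reads with ALX-5407, but the letters were not particular to such genes. Among tested members with a window, TGANTCA was in 2 of the 8 called lower and in 1 of the 4 called higher. The higher gene was Adam19, with a match at position -131 in a window. The letters TTCNNNGAA (STAT), TGACGTCA (CRE) and GGGCGG (GC box) were searched too and are held by 9.55%, 2.03% and 38.2% of all genes. None of them was in the printed MMP windows, and the Timp1 window held GGGCGG. The letters searched were chosen after the expression values were seen, and a match is not evidence of binding.

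In reads, Timp1 had 18396, 19113 and 20413 in the vehicle libraries and 2869, 2882 and 2785 in the ALX-5407 libraries. The groups were far apart, and the replicates within each lay close together. Scaled to library size, its level went from 613 ± 49.2 to 79.3 ± 2.00 CPM (read counts scaled to library totals, SD, n = 3 each). The log2 fold change was -2.95 ± 0.0802 (SE), and the adjusted p was 7.84e-13 by the quasi-likelihood test of edgeR after Benjamini-Hochberg adjustment. Among 22046 protein-coding genes ranked by TPM, a level scaled to gene length and library, Timp1 took ranks 68, 66 and 52 in the vehicle libraries and ranks 398, 424 and 387 in those with ALX-5407. Syn1 had between 96 and 207 reads in any library and a log2 fold change of -0.96 (adjusted p = 3.63e-04 in edgeR).

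The other inhibitors were much less abundant. Timp3, the matrix-bound TIMP that also inhibits ADAM17, had 193, 189 and 198 reads with vehicle and 131, 118 and 126 with ALX-5407, with no overlap between the groups. On the log2 scale the difference was -0.81 ± 0.162 (SE), with adjusted p = 5.97e-04 in edgeR. Timp3 shares 21.3% of its exon bases with Syn3 on the opposite strand, which had at most 9 reads. Timp2, which also takes part in the activation of pro-MMP2 at the cell surface, had 208, 198 and 145 reads with vehicle and 254, 211 and 202 with ALX-5407, and the groups overlapped. Its log2 fold change was 0.09, with a 95% interval of -0.26 to 0.45 (adjusted p = 0.678 in edgeR). Timp4 had 4 reads in 1 vehicle library and 0 in the 5 others.

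Timp1 also held most of the transcripts of the whole set with vehicle. Summed over the 83 genes, the vehicle libraries held between 2170 and 2558 TPM, of which Timp1 made up between 84.8% and 86.8%. The ALX-5407 libraries held between 642 and 686 TPM, of which Timp1 made up between 43.7% and 45.5%. In reads, which are not scaled to its short length of 888 bases, Timp1 made up between 48.8% and 52.8% of the set with vehicle and between 11.5% and 12.2% with ALX-5407. TIMP transcripts amounted to 6.61, 7.46 and 7.58 times the summed MMP, ADAM and ADAMTS transcripts in the vehicle libraries and 0.930, 0.852 and 0.871 times in the ALX-5407 libraries. On the same TPM scale, Timp1 was between 32.1 and 33.0 times Adam10 with vehicle and between 2.71 and 2.92 times with ALX-5407. The sum of the enzymes themselves lay between 262 and 294 TPM with vehicle and between 328 and 355 TPM with ALX-5407. In CPM the same sum lay between 494 and 526 with vehicle and between 544 and 559 with ALX-5407. These ratios are descriptions taken within each library, chosen after the values were seen, and they compare transcripts, not proteins.

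**Figure D1:**
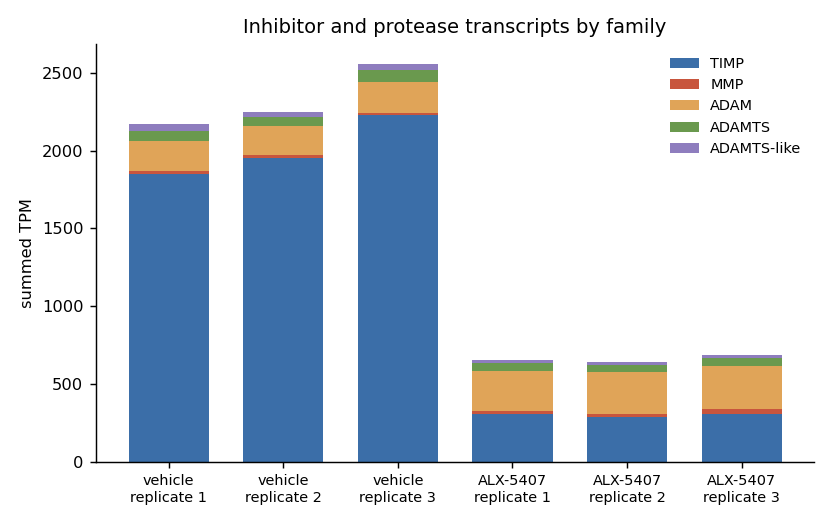
Summed TPM of the 83 genes in each library (vertical axis), with 1 bar for each of the 3 vehicle and 3 ALX-5407 replicates, stacked by family. The TIMP segment is between 1848 and 2227 TPM with vehicle and between 286 and 309 TPM with ALX-5407, while the ADAM segment goes from between 188 and 198 to between 262 and 281 TPM. The size of such a rise depends on the scale. In CPM, the summed MMP, ADAM and ADAMTS genes go from between 494 and 526 to between 544 and 559.

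Of the 28 genes tested, 6 were higher and 10 lower with ALX-5407 at an adjusted p under 0.05 in edgeR's test, or 21.4% and 35.7%. Over all 15938 genes tested, 24.5% were higher and 23.2% were lower. With the study's further requirement of an absolute log2 fold change over 1, 3 members were higher and 5 lower, where 3.36% and 6.68% of all genes tested passed. The groups did not overlap in CPM for 7 members that were higher and 10 that were lower, against 28.4% and 27.1% of all genes tested. The median log2 fold change of the 28 members was 0.11, beside 0.0053 over all genes tested, and it turned to -0.00243 without the first vehicle replicate and to -0.0092 without the third ALX-5407 replicate. Of the 28, 7 passed the filter on low counts through 1 group only, and 5 of these were called: Mmp17, Mmp28, Mmp7, Adam33 and Mmp20. For such genes the filter favours a difference, so these counts describe the set and support nothing further.

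**Figure D2:**
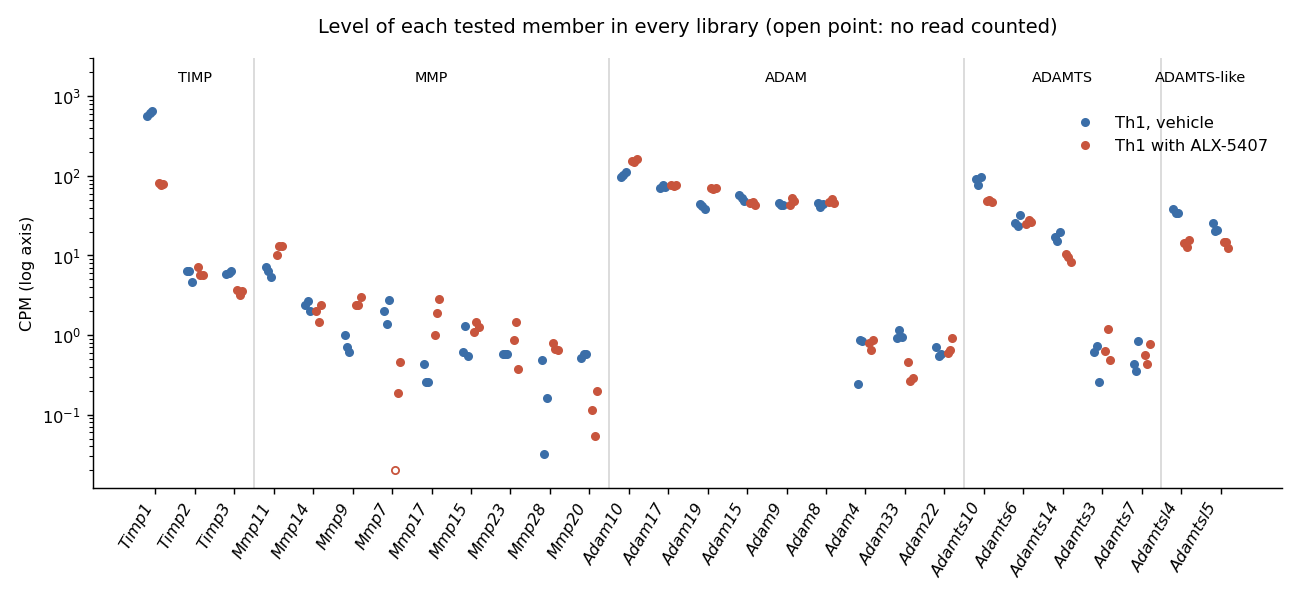
CPM of the 28 tested genes in every library on a log axis, grouped by family, with blue points for vehicle and red points for ALX-5407 (3 each). An open point marks a library with no read. Timp1 goes from between 565 and 663 CPM to between 77.3 and 81.2 CPM, and 6 ADAM genes lie between 38.5 and 162 CPM in every library.

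Among the ADAM genes, the transcripts of Adam10 and Adam19 rose. Adam10 is the protease that cuts Notch receptors and many other surface proteins, and it was the most abundant enzyme of the set. It had 3169, 3264 and 3421 reads with vehicle and 5435, 5529 and 5684 with ALX-5407. Its level went from 104 ± 6.92 to 155 ± 6.99 CPM (SD, n = 3 each), which was 0.57 ± 0.0738 (SE) on the log2 scale, with adjusted p = 9.82e-06 in edgeR. Adam19, known for the release of neuregulins, had 1433, 1304 and 1184 reads with vehicle and 2492, 2556 and 2438 with ALX-5407. Both groups were tight and apart, with a log2 fold change of 0.75 ± 0.0767 (SE) and adjusted p = 8.51e-07 in edgeR.

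Adam17, the TNF-releasing enzyme and closest relative of Adam10, had 2293, 2394 and 2234 reads with vehicle and 2700, 2766 and 2735 with ALX-5407. After scaling to library size the groups overlapped, at 73.1 ± 3.00 and 76.2 ± 1.94 CPM (SD, n = 3 each). The log2 difference was 0.06, with a 95% interval of -0.09 to 0.21 (adjusted p = 0.522 in edgeR). In TPM, Adam10 was 2.01, 1.99 and 2.23 times Adam17 in the vehicle libraries and 2.93, 2.91 and 3.03 times with ALX-5407, and the difference between the groups was not tested. Adam17 shares 4.3% of its exon bases with Iah1 on the opposite strand, which had between 435 and 1133 reads.

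Other ADAM genes of similar level differed by less. Adam8, a protease of leukocytes, had a log2 fold change of 0.13 (95% interval -0.04 to 0.30), and Adam9, a widely expressed sheddase, had 0.12 (95% interval -0.06 to 0.30). Neither passed the threshold (adjusted p = 0.200 and 0.284 in edgeR). Adam15, which carries an integrin-binding sequence, was lower by a small amount, from 52.5 ± 4.51 to 45.0 ± 2.04 CPM (SD, n = 3 each). This was -0.22 on the log2 scale (adjusted p = 0.0353 in edgeR), and the call was lost when any 1 library other than the third vehicle replicate was left out, with adjusted p-values up to 0.153, and with no filter on low counts (adjusted p = 0.0606). It shares 20.6% of its exon bases with an antisense gene that had at most 32 reads. Adam33 was scarce, with 30, 36 and 29 reads with vehicle and 16, 10 and 10 with ALX-5407, and fell by 1.57 ± 0.417 (SE) on the log2 scale, with adjusted p = 0.00522 in edgeR. Adam22, which has no active protease site, and Adam4 had at most 32 and 30 reads in a library and did not pass (adjusted p = 0.675 and 0.705 in edgeR).

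**Figure D3:**
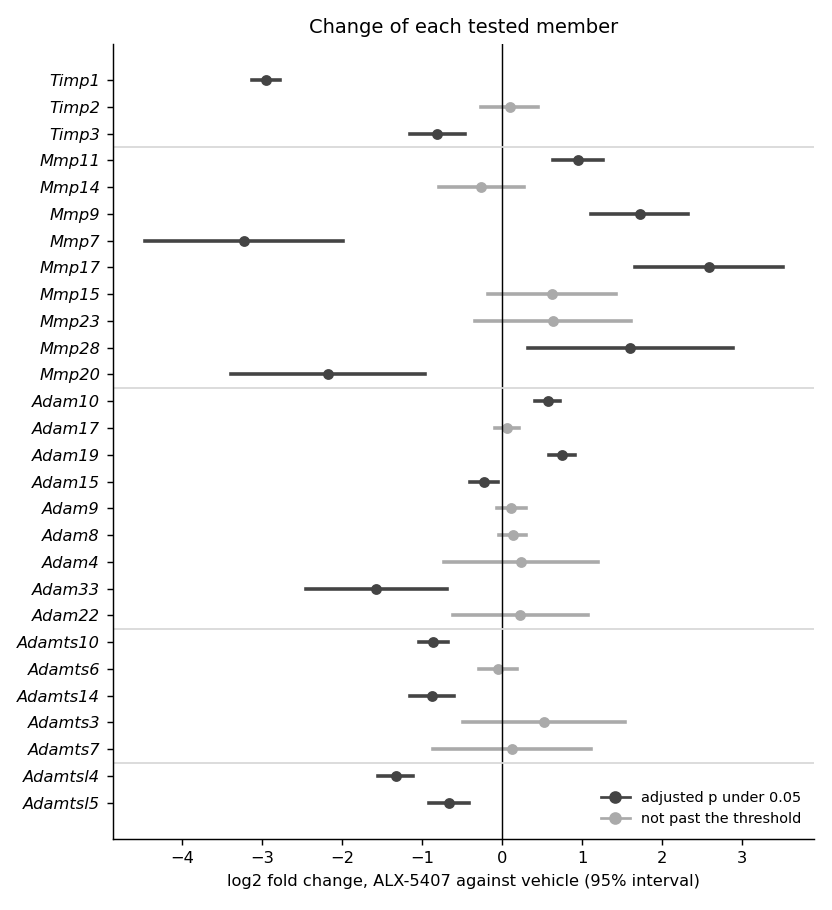
Log2 fold change of ALX-5407 against vehicle for the 28 tested genes (horizontal axis, with 95% intervals), in the family order of the plot of levels. Dark points passed an adjusted p under 0.05 and grey points did not. Timp1 has a narrow interval at -2.95, while Mmp7 at -3.22 and Mmp17 at 2.58 have wide ones.

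All 4 ADAMTS and ADAMTS-like genes that were called fell. Adamts10 and Adamtsl4, which both act on fibrillin microfibrils, were the most abundant of each family in the vehicle libraries. Adamts10 had 2954, 2401 and 2993 reads with vehicle and 1731, 1840 and 1660 with ALX-5407. Its level went from 88.2 ± 10.6 to 48.6 ± 1.06 CPM (SD, n = 3 each), which was -0.86 ± 0.0865 (SE) on the log2 scale, with adjusted p = 6.93e-07 in edgeR. Adamtsl4 had 1257, 1079 and 1053 reads with vehicle and 513, 472 and 542 with ALX-5407, a log2 fold change of -1.33 ± 0.101 (SE), with adjusted p = 3.87e-08 in edgeR. In both genes every library with ALX-5407 was below every vehicle library.

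Adamts14, a procollagen N-proteinase, had 558, 473 and 609 reads with vehicle and 368, 359 and 291 with ALX-5407. On the log2 scale the difference was -0.88 ± 0.129 (SE), with adjusted p = 3.69e-05 in edgeR. Adamtsl5, another fibrillin-binding protein, had 840, 642 and 652 reads with vehicle and 529, 559 and 440 with ALX-5407, and its log2 fold change was -0.67 ± 0.116 (SE), with adjusted p = 1.83e-04 in edgeR. Adamts6, the closest relative of Adamts10, had 824, 736 and 1005 reads with vehicle and 870, 1039 and 914 with ALX-5407. Its groups overlapped, with a log2 fold change of -0.05 (95% interval -0.29 to 0.19, adjusted p = 0.744 in edgeR). Adamts3 and Adamts7 had at most 45 and 27 reads in a library and did not pass (adjusted p = 0.393 and 0.858 in edgeR).

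MMP transcripts were scarce in both groups. The 22 MMP genes together came to between 16.2 and 18.6 TPM with vehicle and between 19.3 and 27.0 TPM with ALX-5407. Mmp11 (stromelysin-3), which furin activates inside the cell, was the most abundant, with 235, 203 and 166 reads with vehicle and 363, 495 and 463 with ALX-5407. It rose by 0.94 ± 0.148 (SE) on the log2 scale, with adjusted p = 6.82e-05 in edgeR. Mmp11 shares 155 exon bases, or 5.6% of its exon length, with Chchd10 on the opposite strand, and Chchd10 rose as well (by 1.55 on the log2 scale, adjusted p = 1.21e-08). The strand setting of the counting is not given in the sources used here, so reads of both genes in this stretch cannot be told apart.

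Of the remaining MMPs, Mmp9, Mmp17 and Mmp28 were higher and Mmp7 and Mmp20 were lower. Mmp9 (gelatinase B), which degrades basement membrane collagen, had 33, 22 and 19 reads with vehicle and 84, 88 and 105 with ALX-5407. On the log2 scale the difference was 1.72 ± 0.286 (SE), with adjusted p = 1.18e-04 in edgeR. Mmp17, a membrane enzyme held by a lipid anchor, had 14, 8 and 8 reads with vehicle and 35, 71 and 99 with ALX-5407, a spread-out group that still lay above the other. Its log2 fold change was 2.58 ± 0.436 (SE), with adjusted p = 1.38e-04 in edgeR. Mmp28 (epilysin) had 16, 1 and 5 reads with vehicle and 28, 25 and 23 with ALX-5407, with a log2 fold change of 1.60 (adjusted p = 0.0385 in edgeR). That call was lost in DESeq2 (adjusted p = 0.0698) and when any 1 library other than the first vehicle replicate was left out, with adjusted p-values up to 0.157. Without the first vehicle replicate its log2 fold change was 2.815. Mmp28 shares 466 exon bases with 1700020L24Rik on the opposite strand, which had at most 12 reads.

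The membrane-type enzymes Mmp14 and Mmp15 and the short enzyme Mmp23 were detected without a call. Mmp14, an activator of pro-MMP2, had 78, 83 and 61 reads with vehicle and 71, 55 and 84 with ALX-5407 (log2 fold change -0.26, 95% interval -0.79 to 0.27, adjusted p = 0.424 in edgeR). Mmp2 itself had no reads, which with 3 counts as the limit of a count of 0 allows between 0.0804 and 0.0974 CPM per library, for counting error only. Mmp15 differed by 0.62 on the log2 scale (adjusted p = 0.191 in edgeR), and passed without the second vehicle replicate (1.10, adjusted p = 0.041). Mmp23 differed by 0.63 on the log2 scale (adjusted p = 0.279 in edgeR).

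The 9 MMP genes of chromosome 9 lie within 427 kb (chr9:7272514-7699585, GRCm38). Mmp7 (matrilysin), at one end of this cluster, had 65, 43 and 84 reads with vehicle and 0, 7 and 16 with ALX-5407. Its log2 fold change was -3.22 ± 0.585 (SE), with adjusted p = 2.61e-04 in edgeR, and was -4.35 without the third ALX-5407 replicate. Mmp7 shares 11.5% of its exon bases with the antisense gene AV064505, which had at most 5 reads. Mmp20 (enamelysin), its neighbour, had 17, 18 and 18 reads with vehicle and 4, 2 and 7 with ALX-5407, with a log2 fold change of -2.17 ± 0.572 (SE) and adjusted p = 0.00497 in edgeR. Mmp10 (stromelysin-2) had 20, 26 and 6 reads with vehicle and 0, 4 and 2 with ALX-5407, too few to be tested. These are the 3 genes whose start regions are printed above.

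The other cluster genes had few reads. Mmp8 (neutrophil collagenase) had 6, 8 and 7 reads with vehicle and 2, 7 and 21 with ALX-5407. Mmp3, Mmp12, Mmp13, Mmp27 and Mmp1b had at most 4 reads in any library, and Mmp3, Mmp12, Mmp13 and Mmp1b hold TGANTCA in a window as well. Summed over the cluster, the vehicle libraries had 110, 99 and 119 reads and the ALX-5407 libraries 12, 22 and 51. Mmp7 gave 65, 43 and 84 of these with vehicle and 0, 7 and 16 with ALX-5407, where Mmp8 gave 2, 7 and 21. No test was made of the sum.

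**Figure D4:**
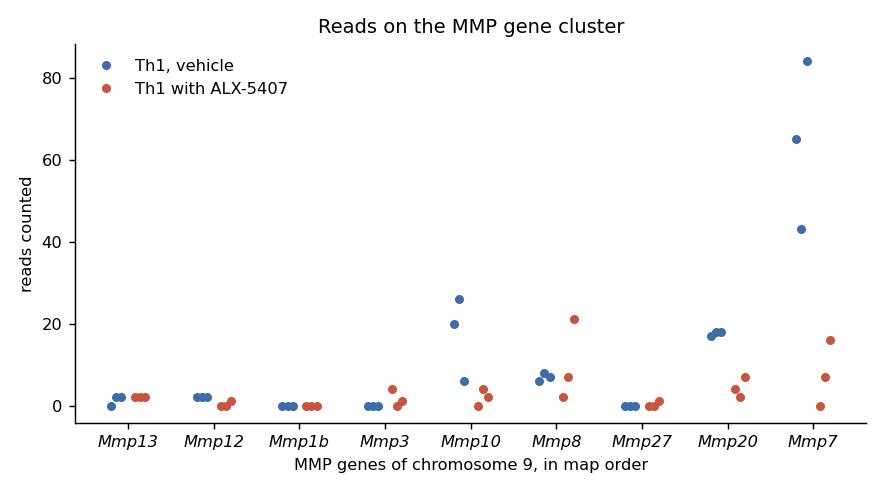
Reads counted on the 9 MMP genes of the chromosome 9 cluster in each library (vertical axis), in map order along the horizontal axis, with blue points for vehicle and red points for ALX-5407 (3 each). Mmp7, Mmp20 and Mmp10 are lower in the ALX-5407 libraries, where the highest Mmp7 value is 16 reads against 43 for the lowest vehicle library.

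Of the 55 members not tested, 39 had reads, between 1 and 58 in total over the 6 libraries with a median of 5. The most abundant were Mmp10, Adam1a (53 reads) and Mmp8 and Mmp19 (51 reads each). Adam1a shares exons with Mapkapk5 on the same strand, so its reads are uncertain. The 16 genes with no read in any library were 10 ADAM genes, most of them known from the testis, 4 ADAMTS genes and the MMP genes Mmp2 and Mmp1b.

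Genes known to work with these proteases were described from lists. Of 16 partners and regulators of shedding, 12 were tested, of which 3 were higher and 4 lower (24.5% and 23.2% of all genes tested were higher and lower, shares that also stand beside the counts of the lists that follow). The count of higher genes is near the background. The 3 higher genes were Rhbdf2, Frmd8 and Furin. Rhbdf2 (iRhom2), which carries ADAM17 to the cell surface, had 826, 771 and 672 reads with vehicle and 1534, 1504 and 1427 with ALX-5407, a log2 fold change of 0.79 (adjusted p = 1.94e-06 in edgeR). Frmd8, which stabilizes the iRhom complex, rose by 0.56 (adjusted p = 9.89e-06), and Furin, which removes the prodomain of ADAMs and membrane-type MMPs, rose by 0.66 (adjusted p = 2.29e-06). Rhbdf1 and Pcsk7 were not called, with log2 fold changes of -0.02 (95% interval -0.50 to 0.46) and 0.11 (95% interval -0.08 to 0.30).

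Among the tetraspanins that guide ADAM10, Tspan14 differed by -0.42 on the log2 scale (adjusted p = 3.87e-04 in edgeR), Tspan5 by -0.27 (adjusted p = 0.0165) and Tspan33 by -0.78 (adjusted p = 0.0397), the last from at most 78 reads. Bsg (CD147), known as an inducer of MMP expression, fell by 0.73 (adjusted p = 1.95e-06). Tspan5, Tspan17, Tspan33, Pcsk7 and Rhbdf1 fall outside the rule for named genes and were chosen after their values were seen. The call of Tspan5 was lost without the first or second vehicle replicate or without the second or the third ALX-5407 replicate. That of Tspan33 was lost in DESeq2 (adjusted p = 0.0687), without the second or the third vehicle replicate and without the first or the third ALX-5407 replicate. The count of lower genes in this list was 2 without the second vehicle replicate or without the third ALX-5407 replicate.

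Of 32 proteins known to be shed by ADAM10 or ADAM17, 25 were tested, of which 8 were higher and 10 lower (background 24.5% and 23.2%), with a median log2 fold change of -0.07. Notch1, the receptor that ADAM10 cuts, rose with it, from 158 ± 14.3 to 294 ± 0.490 CPM (SD, n = 3 each), which was 0.89 on the log2 scale (adjusted p = 1.23e-07 in edgeR). Havcr2 (TIM-3), an inhibitory receptor, rose by 1.27 (adjusted p = 7.98e-07). The receptor phosphatase Ptprk fell by 1.66 (adjusted p = 6.95e-09), the endocytic receptor Lrp1, which also clears Timp1 and MMPs from outside the cell, by 1.08 (adjusted p = 3.57e-08), and Fasl by 1.56 on the log2 scale (adjusted p = 1.42e-07). Tnf, named after its values were seen, differed by 0.61 on the log2 scale (adjusted p = 7.04e-05 in edgeR). Substrates moved in both directions.

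**Figure D5:**
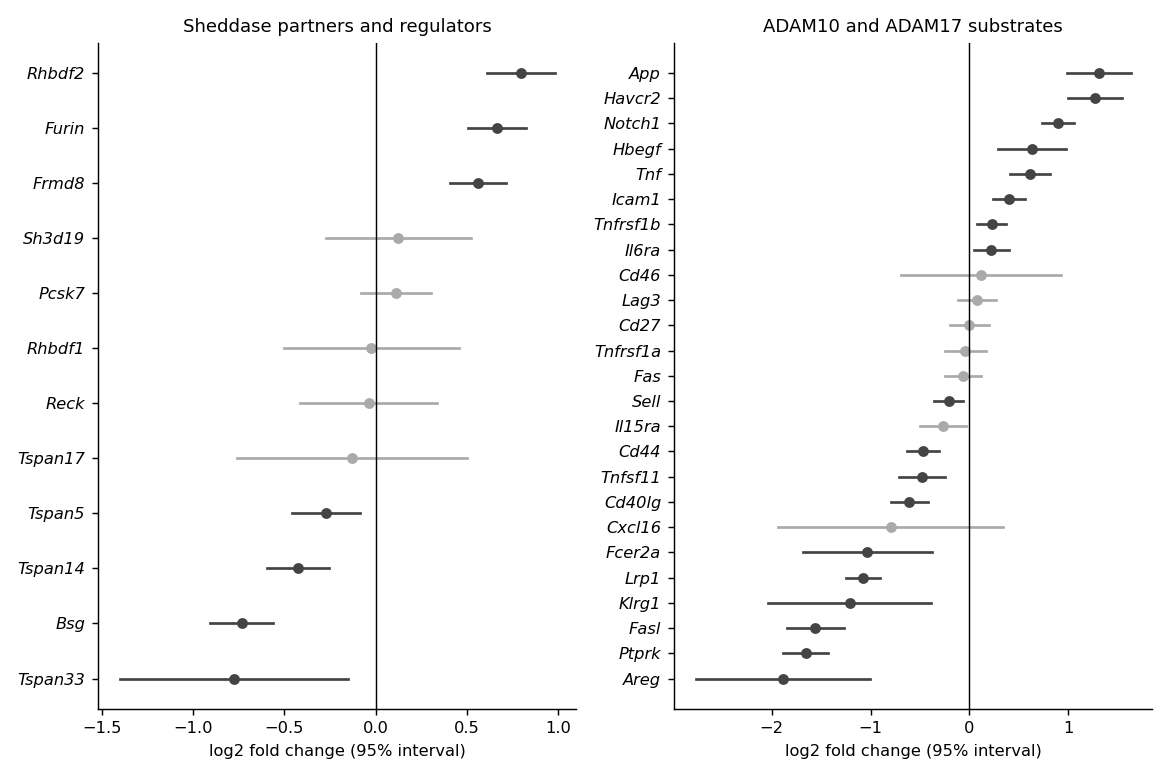
Log2 fold change of ALX-5407 against vehicle with 95% intervals (horizontal axes) for the 12 tested partners of shedding (left) and the 25 tested ADAM10 and ADAM17 substrates (right), ordered by value. Dark points passed an adjusted p under 0.05 and grey points did not. Rhbdf2, Furin and Frmd8 lie to the right and the tetraspanins to the left of 0, though the interval of Tspan17 crosses 0.

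The plasminogen system, which activates MMP precursors, was tested in 9 of 11 genes, of which 1 was higher and 5 lower (background 24.5% and 23.2%). Serpine2, an inhibitor of serine proteases, fell by 0.59 (adjusted p = 6.22e-04 in edgeR), and the plasminogen-binding pair Anxa2 and S100a10 by 0.70 and 0.28 on the log2 scale (adjusted p = 2.16e-06 and 0.00747). Serpinb2 rose by 2.25 from at most 11 reads in a vehicle library (adjusted p = 0.00196). Among 28 matrix proteins that MMPs and ADAMTS enzymes cut, 14 were tested, of which 4 were higher and 3 lower, near the background of 24.5% and 23.2%. Spp1 (osteopontin) rose by 1.60 (adjusted p = 7.07e-09), Thbs1 by 2.28 (adjusted p = 0.00119) and Vwf by 1.83 (adjusted p = 0.00468). Thbs1 had 3, 6 and 18 reads with vehicle, and its log2 fold change was 3.27 without the third vehicle replicate. The laminin chain Lama5 fell by 0.61 (adjusted p = 1.92e-05) and Eln by 2.26 on the log2 scale (adjusted p = 7.85e-04). Eln had 32, 45 and 26 reads with vehicle and 6, 6 and 12 with ALX-5407. Serpinb2, Thbs1 and Vwf reached the filter on low counts in every library of the ALX-5407 group only, and Eln of the vehicle group only. For these genes too the filter favours a difference.

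The libraries held between 30801753 and 36727788 counts and carried T helper markers throughout, with all 11 tested (Cd3e, Cd4, Tbx21 and others) and a summed level between 3903 and 4106 CPM with vehicle and between 3084 and 3279 CPM with ALX-5407. Of these 11, 6 were lower and 2 higher. Markers of macrophages, a source of Timp1 and MMPs, summed to between 16.7 and 22.2 CPM with vehicle and between 5.75 and 7.07 CPM with ALX-5407. Most of this sum was Cd68 alone, with means of 18.3 CPM with vehicle and 5.44 CPM with ALX-5407. Only Cd68 and Mrc1 of the 11 were tested, both lower (log2 fold change -1.75 and -1.32), and C1qa and C1qb were at 0. Of 9 neutrophil markers, 1 (Ly6g) was tested and fell by 1.42 on the log2 scale, with a summed level between 69.9 and 75.4 CPM with vehicle and between 24.2 and 31.6 CPM with ALX-5407, while S100a8, S100a9, Elane, Ltf and Csf3r were at 0. Ly6g, with means of 72.1 CPM with vehicle and 27.0 CPM with ALX-5407, was nearly all of this sum. The untested neutrophil markers had at most 3 reads in a library, so the sum describes Ly6g and not a level of neutrophils. Of 9 fibroblast markers, 5 were tested, of which Lum fell by 2.14 on the log2 scale, Thy1 (also a T cell gene) and Pdgfrb were higher, and Pdgfra was at 0. Pdgfrb had 9, 5 and 2 reads with vehicle and 26, 21 and 16 with ALX-5407. It passed the filter on low counts through the ALX-5407 group only, which favours a difference. Without Thy1, the fibroblast markers summed to between 6.92 and 9.26 CPM with vehicle and between 2.94 and 5.18 CPM with ALX-5407. The difference in this sum rests largely on Lum, with means of 4.19 CPM with vehicle and 0.944 CPM with ALX-5407. Col1a1 and Cdh11 were tested without a call (adjusted p = 0.186 and 0.665 in edgeR). Of the 8 B cell markers tested, 3 were higher and 1 lower, with Ebf1 at -1.62, Ms4a1 at 1.27 and Pax5 at 0.90 on the log2 scale, and the sums were between 77.5 and 86.7 CPM with vehicle and between 79.1 and 83.7 CPM with ALX-5407. Of the 4 CD8 T and NK cell markers tested, Eomes was higher (1.05) and Cd8a lower (-0.80). These marker genes were named after their values were seen. Of the dendritic cell list 3 were tested and 1 was lower, of the endothelial list 3 were tested with 1 higher and 1 lower, and of the erythroid list 1 was tested without a call. In the megakaryocyte list 3 of the 4 tested genes were higher, with a sum between 5.10 and 6.01 CPM with vehicle and between 10.4 and 12.5 CPM with ALX-5407. The part of these cells in the changes of the 28 tested members was not tested. In these bulk samples, fewer cells of a type and less RNA per cell cannot be told apart.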

How the data were processed

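The authors deposited raw counts, whole numbers of reads per gene for 6 libraries, with GRCm38 coordinates and gene lengths. Per the labels, the processing notes name fastp, HISAT2 2.0.5, featureCounts 1.5.0-p3 and mm10. The settings for strand and multi-mapped reads are not given in the sources used here. Of the 83 members, 81 have the same exon length in GENCODE M21. Counts were tested in edgeR 4.0.16 (R 4.3.3) over the whole table with filterByExpr at its defaults (minimum count 10, minimum total 15), TMM scaling, the quasi-likelihood F test and Benjamini-Hochberg adjustment over 15938 genes. The procedure was tested on simulated data. Standard errors came from the fold change and its F statistic. TPM was computed from counts and the deposited lengths. Alternatives were RLE and upper-quartile scaling, other filters, DESeq2 1.42.0, limma-voom (limma 3.58.1), protein-coding genes alone, a replicate block and each replicate left out.

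No 2 libraries of 1 group were copies: their chi-square statistic per degree of freedom lay between 5.39 and 20.5, above sampling noise. Members and gene lists were chosen with earlier results of these data known. Named genes were all TIMP genes, every member at an adjusted p under 0.05, the 8 members of highest mean TPM, the most abundant untested members and up to 5 genes with the smallest p-values per list. Other tested members were named for completeness. A gene of the plasminogen list that met this rule is not reported here. Promoter windows and their coordinates come from RefSeq (GRCm38.p6). Figures were drawn with matplotlib 3.10.9.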

Additional observations from a re-analysis of the deposited data

How the results depend on the processing

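Across 14 alternatives, the calls of Timp1, Timp3, Adam10, Adam19, Adamts10, Adamts14, Adamtsl4, Adamtsl5, Mmp7, Mmp9, Mmp11 and Mmp17 were kept with their direction, and the log2 fold change of Timp1 ranged from -3.01 to -2.905. Adam33 and Mmp20 kept theirs in the 13 alternatives that tested them. Like Mmp7 and Mmp17, they passed the main filter on low counts through 1 group only, which favours a difference. For these genes a call that was kept adds no support. The filter of 1 CPM in 3 libraries removed Adam33 and Mmp20. Under that filter, 3 members were lower beyond the fold change threshold instead of 5 because fewer were tested (20), and the median log2 fold change of members was -0.0165. The median was 0.0718 in DESeq2, 0.0584 with protein-coding genes alone, 0.0917 with RLE and 0.0524 with upper-quartile scaling, and between -0.0092 and 0.0818 with 1 replicate left out. No gene of the plasminogen list was higher under the filter of 1 CPM (0 instead of 1). With at least 10 reads in total as the limit, 41 members were detected instead of 67. With 1 replicate left out, between 5 and 6 members were higher and between 9 and 11 lower.

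With 1 replicate left out, 4 genes without a call changed sign: the log2 fold change ranged from -0.0507 to 0.163 for Timp2, from -0.168 to 0.482 for Adam4, from -0.157 to 0.0861 for Adamts6 and from -0.123 to 0.567 for Adamts7. The cause was not tested. The correlations of deviations between libraries with the same replicate number were 0.00889, 0.0181 and 0.104, so the numbers were not taken to pair the samples. With a replicate block, 6 members were higher and 10 lower, as without it. Not every vehicle library correlated best with its own number. Of the 28 tested members 11 had a mean under 50 reads, among them 6 of the 9 MMP genes, and their intervals are wide.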
